A study of Homo sapiens with 9 samples.

Results

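PLAU, PLAUR, PLAT, SERPINE2, F3, TFPI2, F2R, F2RL1 and F2RL2 are 9 genes of plasminogen activation, blood coagulation and the receptors cut by their proteases. They were chosen by name for their place in these pathways, out of 60230 genes in the deposited tables, with earlier results of these data known. All 9 were found by symbol and all 9 passed the filter on low counts, as did 17307 genes in all. Poly(A) RNA was sequenced from 3 states of the human lung cancer cell line NCI-H358, with 3 libraries each. Parental cells were sensitive to sotorasib, a targeted cancer drug, and received no treatment. NCI-H358-R cells were derived from them by growth in 250 nM sotorasib over about 2 months. These were sampled either with no sotorasib (off drug) or 4 days after a dose of 250 nM (on drug). No source used here says how long they had been without it. There was 1 resistant derivative, so what resistance brought cannot be told apart from anything else that set the derivative off from its parent. The libraries are called biological replicates, but nothing states that they came from separate cultures. The p-values therefore rest on a spread among libraries that may be technical.

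Plasminogen activators are serine proteases that cut plasminogen into plasmin, which digests fibrin and matrix; urokinase (PLAU) works bound to its cell-surface receptor (PLAUR), and serpins inactivate it. Tissue factor (F3) is the membrane protein that starts coagulation by binding factor VII, and Kunitz-type inhibitors restrain it. Protease-activated receptors (PARs) are G protein-coupled receptors switched on when thrombin, trypsin-like or other proteases cut off part of their outer end, and carcinoma cells commonly make several parts of these systems themselves.

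Total counts, in units of 1e6, ran from 25.7 to 31.79 in parental, 25.73 to 33.99 in off-drug and 33.39 to 34.73 in on-drug libraries. On-drug libraries stood apart, with 24189 to 24360 genes detected where the other 6 had 22079 to 22957, and with TMM factors of 1.113 to 1.124 where the other 6 had 0.917 to 0.972. With scaling by library size only, the median change of all genes shifted from 0.02 to 0.27 on the log2 scale between on- and off-drug cells, and from 0.02 to 0.24 between on-drug and parental cells. The share of calls that were higher then moved from 50.1 to 68.5% and from 50.4 to 64.3%. As a check of the drug, DUSP6, an ERK phosphatase gene that reports ERK output, stood at 158 ± 1.7 CPM in parental, 192 ± 6.78 off drug and 14.5 ± 2.08 on drug (SD, n = 3). DUSP6 and 3 other genes that ERK induces fell from off to on drug (−3.73 for DUSP6, −3.13 for SPRY4, −1.64 for ETV4 and −1.56 for EGR1), but EGR1 was still higher on drug than in parental cells (0.95 ± 0.11, adjusted p = 1.3e-06). Epithelial markers fixed for the line (EPCAM, KRT8, KRT18, KRT19, KRT7, CDH1, MUC1 and ELF3) all passed the filter and summed to 6825 to 8237 CPM in parental, 6953 to 7156 in off-drug and 4319 to 5144 in on-drug libraries. From parental to off drug, EPCAM (822 to 411 CPM in mean), MUC1 (21.6 to 12.9) and ELF3 (148 to 95.4) fell and KRT18 (981 to 1154) rose. The markers did not move as 1 group from off to on drug: EPCAM, KRT8, KRT18 and KRT19 fell, and CDH1 (223 to 318 CPM in mean), MUC1 (12.9 to 55.9) and ELF3 (95.4 to 301) rose. For any gene measured in bulk RNA, fewer cells with a transcript and less of it per cell cannot be told apart.

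In the text, levels are CPM (counts per 1e6 counts, scaled by TMM) for one gene across libraries, and TPM (which also accounts for transcript length) where genes are set against each other. Changes are given on the log2 scale ± SE, with Benjamini-Hochberg adjusted p-values (edgeR, quasi-likelihood) taken over all 17307 genes. A gene was called at an adjusted p under 0.05. Off drug against parental, 8 of the 9 genes were called higher and 0 lower, where 55.0% of all genes were called, 28.4% higher and 26.6% lower. No member was lower at an unadjusted p under 0.05 in edgeR (0 of 9) or called lower by DESeq2 (0 of 9). Their median change was 0.66, against 0 over all genes tested. On drug against off drug, 3 genes were higher and 6 lower, beside 31.4% and 31.2% of all genes (62.6% in either direction), with a median of −0.88 against 0.02. On drug against parental, 4 were higher and 4 lower, beside 33.4% and 32.9% of all genes (66.3% in either direction), with a median of 0.15 against 0.02. The libraries of the states compared did not overlap for 9 of the 9 genes off drug against parental (61.9% of all genes), 9 on drug against off drug (67.6%) and 8 on drug against parental (69.0%). The comparisons share libraries, so the counts are not independent of each other. The 9 genes were chosen with earlier results of these data known, so their counts and medians are a description only. F2RL2 passed the filter only through resistant libraries, so its calls against parental cells were close to set in advance.

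By gene, PLAU, PLAT, PLAUR, SERPINE2 and F2RL1 fell in the resistant cells when the drug was present, with fold changes between 1.83 and 4.89. F3, F2R and F2RL2 rose, between 1.97- and 4.61-fold, and TFPI2 was called 1.18-fold lower, a call that several alternatives did not keep.

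**Figure D1:**
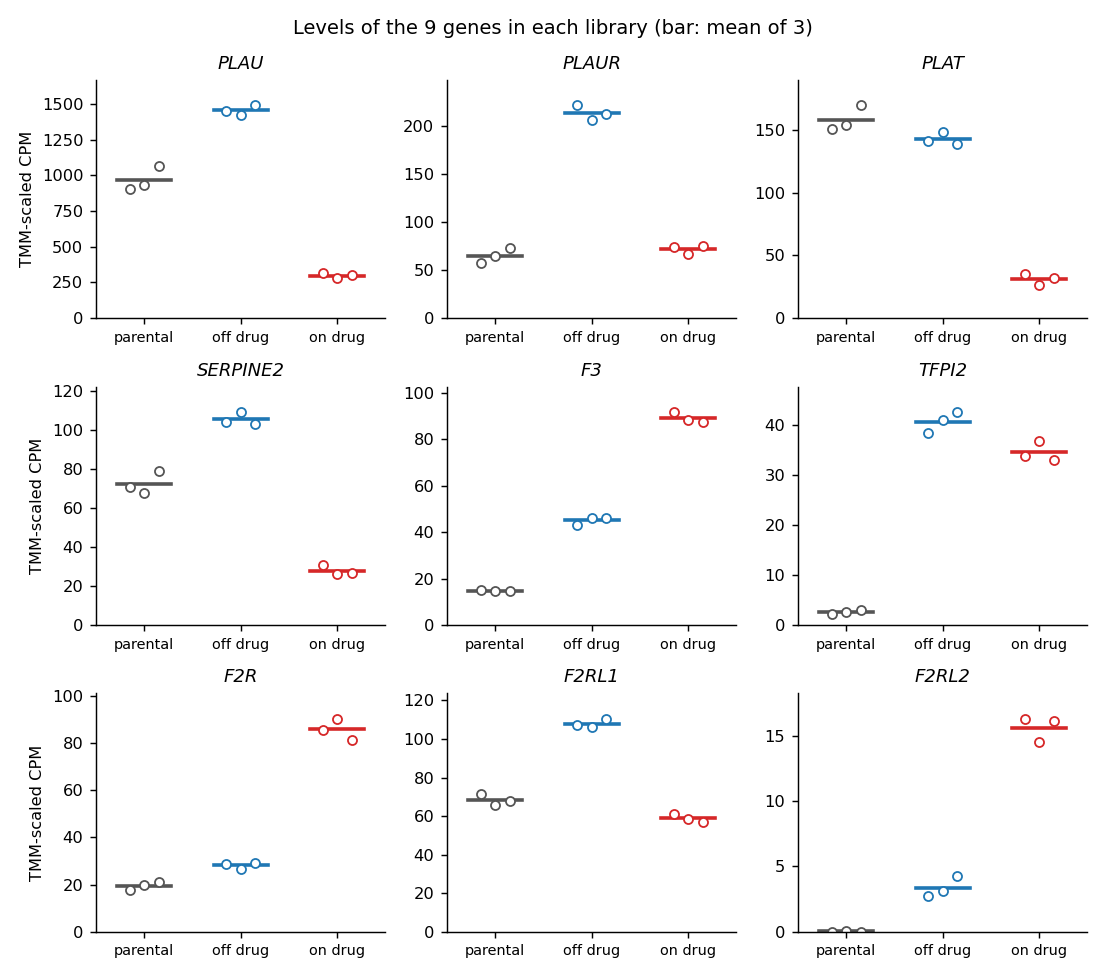
TMM-scaled CPM (vertical axes, linear from 0) of the 9 genes in each of 3 parental, 3 off-drug and 3 on-drug libraries; points are libraries and bars are means. PLAU, PLAT and SERPINE2 are lowest on drug, F3, F2R and F2RL2 are highest on drug, and PLAUR and F2RL1 are highest off drug.

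PLAU (ENSG00000122861.16, chr10:73909177-73917497, plus strand), which encodes urokinase, had the highest TPM of the 9 genes in every state. Its level was 905, 933 and 1065 CPM in parental libraries, 1451, 1423 and 1489.5 off drug and 316, 278 and 299 on drug. The 3 states did not overlap, with off-drug libraries highest and on-drug libraries lowest. PLAU rose 1.5-fold in resistant cells off drug (0.59 ± 0.08, adjusted p = 2.2e-05). It fell 4.89-fold from off to on drug (−2.29 ± 0.09, adjusted p = 3.4e-12), to 3.26-fold below parental cells (−1.70 ± 0.09, adjusted p = 7.8e-11). The exons of PLAU share 916 bases with C10orf55 on the opposite strand, which held 83 to 221 counts a library, and no source used here gives the strand setting of the counting.

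PLAT (ENSG00000104368.19, chr8:42175233-42207724, minus strand) encodes tissue-type plasminogen activator, the enzyme best known for dissolving clots in vessels. It stood at 151, 154 and 169.5 CPM in parental, 141, 148 and 139 off drug and 35.2, 26.2 and 32.0 on drug. On-drug libraries were far below the other 6, and parental and off-drug libraries lay close together without overlapping. No change was called off drug against parental (−0.15 ± 0.10, 95% interval −0.35 to 0.06, adjusted p = 0.21), although with upper-quartile scaling it was called lower (−0.24, adjusted p = 0.042). On the TPM scales the change was 0.04 and not called. The fall on drug was 4.58-fold against off-drug cells (−2.20 ± 0.10, adjusted p = 3.2e-11) and 5.08-fold against parental cells (−2.34 ± 0.10, adjusted p = 1.3e-11). The TPM ratio of PLAU to PLAT averaged 8.51 ± 0.715 in parental, 11.9 ± 0.755 off drug and 11.1 ± 1.7 on drug (SD, n = 3), and the off- and on-drug ratios overlapped.

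PLAUR (ENSG00000011422.12, chr19:43646095-43670547, minus strand) encodes the urokinase receptor, a GPI-anchored protein. Parental libraries held 57.8, 64.4 and 72.9 CPM, off-drug libraries 222, 207 and 213, and on-drug libraries 74.5, 66.8 and 75.3. Off-drug libraries stood above all others, and parental and on-drug libraries overlapped. The gene rose 3.3-fold off drug (1.72 ± 0.09, adjusted p = 5.2e-10) and fell 2.97-fold on drug (−1.57 ± 0.09, adjusted p = 5e-10). On drug against parental the change was not called (0.15 ± 0.09, 95% interval −0.04 to 0.34, adjusted p = 0.15). That last comparison depended on scale and on the libraries kept. It was called higher without parental replicate 3 (0.24, adjusted p = 0.021), with library size only (0.38, adjusted p = 0.0014) and on the log2(TPM + 1) scale (0.58, adjusted p = 0.00032, limma). The TPM ratio of ligand to receptor, PLAU to PLAUR, was 8.27 to 9.99 in parental, 3.42 to 3.65 off drug and 1.89 to 2.05 on drug, with no overlap between states.

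SERPINE2 (ENSG00000135919.14, chr2:223975112-224039319, minus strand) encodes protease nexin-1, a serpin that inhibits urokinase, thrombin and plasmin. It was measured at 70.8, 67.4 and 78.7 CPM in parental, 104, 109 and 103 off drug and 30.5, 26.1 and 26.6 on drug. The states did not overlap and had the same order as PLAU. SERPINE2 rose 1.46-fold off drug (0.54 ± 0.09, adjusted p = 6.1e-05) and fell 3.8-fold on drug against off drug (−1.93 ± 0.09, adjusted p = 3.4e-11). It was 2.61-fold below parental cells on drug (−1.38 ± 0.09, adjusted p = 1.4e-09). The TPM ratio of PLAU to SERPINE2 was 12.3 ± 0.265 in parental, 11.9 ± 0.551 off drug and 9 ± 0.514 on drug (SD, n = 3), lower on drug than in the other 6 libraries.

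**Figure D2:**
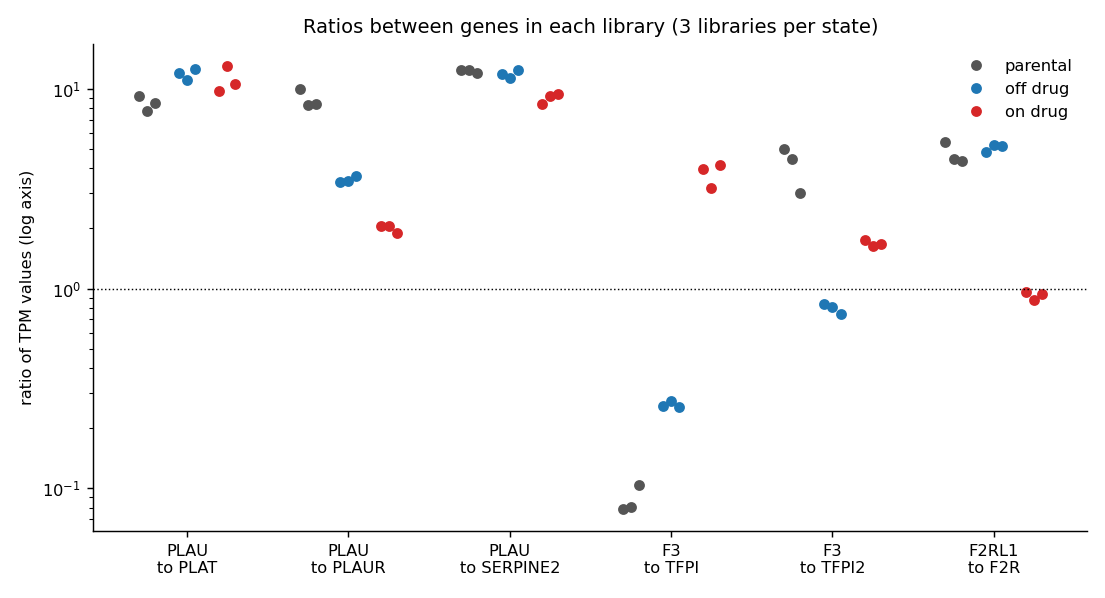
Ratios between the TPM values of 2 genes in each library (vertical log axis, dotted line at a ratio of 1; points are the 3 libraries of each state). The ratio of PLAU to PLAUR steps down from parental to off-drug to on-drug libraries, while the ratio of F3 to TFPI steps up.

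Of 23 other genes of the plasminogen system, 15 passed the filter. Off drug against parental, 7 were higher and 6 lower (median −0.18), beside 28.4% and 26.6% of all genes. On drug against off drug 2 were higher and 10 lower (median −0.80), beside 31.4% and 31.2%. On drug against parental 4 were higher and 9 lower (median −0.80), beside 33.4% and 32.9%. PLG, the gene of plasminogen itself, had at most 4 counts in any library, and SERPINB2, the gene of PAI-2, at most 2. PLGRKT, which encodes a plasminogen receptor, had 63.4 ± 3.87 CPM in parental cells, rose to 99.3 ± 9.53 in off-drug cells and fell to 28.7 ± 4.97 under the drug (−1.79 ± 0.12, adjusted p = 1.7e-09). Its order of states was that of PLAU. The integrin subunit genes ITGB3 and ITGB5, whose products pair with ITGAV to bind vitronectin, fell on drug against off drug (−2.84 ± 0.13, adjusted p = 2.1e-11, and −2.33 ± 0.10, adjusted p = 8.7e-12). ITGAV rose there from 153 ± 5.93 to 273 ± 28.4 CPM (0.84 ± 0.10, adjusted p = 1.7e-06). LRP1, the endocytic receptor that clears protease and serpin complexes, fell in both steps, from 79.2 ± 16.5 to 42.7 ± 6.28 and 24.3 ± 2.69 CPM. The second step of LRP1 was not called on unfiltered log2(TPM + 1) (−0.45, adjusted p = 0.081, limma). SERPINB8 rose off drug (1.35 ± 0.14, adjusted p = 1e-06) and fell on drug (−1.29 ± 0.14, adjusted p = 7.7e-07). MRC2, a collagen receptor that associates with PLAUR, rose off drug from 27.5 ± 2.3 to 48.3 ± 1.59 CPM (0.82 ± 0.08, adjusted p = 6.7e-07) and stood at 55.2 ± 1.75 on drug. The change of MRC2 from off to on drug, 0.19, was not called, but 13 of 18 alternatives called it higher.

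F3 (ENSG00000117525.14, chr1:94529225-94541800, minus strand), the gene of tissue factor, was at 14.9, 14.5 and 14.8 CPM in parental, 43.2, 46.0 and 46.3 off drug and 91.7, 88.5 and 87.4 on drug. The states were well separated, with parental libraries lowest and on-drug libraries highest. F3 rose 3.07-fold off drug (1.62 ± 0.08, adjusted p = 2.2e-10) and a further 1.97-fold on drug (0.98 ± 0.07, adjusted p = 1.1e-08). On-drug cells were 6.06-fold above parental cells (2.60 ± 0.08, adjusted p = 3.6e-13).

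TFPI2 (ENSG00000105825.14, chr7:93885396-93890991, minus strand) encodes a secreted Kunitz-type inhibitor that acts on plasmin, trypsin and the tissue factor complex. Parental libraries held 2.29, 2.60 and 2.98 CPM, off-drug libraries 38.3, 40.9 and 42.5 and on-drug libraries 33.7, 36.8 and 33.0. Parental libraries were far below all resistant ones, and the off- and on-drug values lay next to each other. The rise was 15.5-fold off drug (3.95 ± 0.11, adjusted p = 1.2e-12) and 13.2-fold on drug against parental (3.72 ± 0.11, adjusted p = 3.4e-13). From off to on drug it was called lower by a small step (−0.23 ± 0.09, adjusted p = 0.03). The adjusted p passed 0.05 without off-drug replicate 2 (adjusted p = 0.076) or 3 (0.11), without on-drug replicate 1 (0.085) or 3 (0.11), with upper-quartile scaling (0.34) and with no filter (0.17), and the sign turned with library size only (0.02) and on the TPM scales (0.10 to 0.11).

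TFPI, the gene of the principal tissue factor pathway inhibitor and no member of the 9, went against F3. It was at 145, 145 and 135 CPM in parental, 135, 138 and 140.3 off drug and 19.2, 21.1 and 18.0 on drug. On-drug libraries stood apart, and the other 6 overlapped. TFPI fell on drug (−2.82 ± 0.08, adjusted p = 2.3e-13), with no change called off drug against parental (−0.04 ± 0.08, adjusted p = 0.73). The TPM ratio of F3 to TFPI was 0.0876 ± 0.0143 in parental, 0.262 ± 0.00945 off drug and 3.78 ± 0.52 on drug (SD, n = 3). The ratio of F3 to TFPI2 instead was highest in parental cells, at 4.16 ± 1.03, against 0.797 ± 0.0471 off drug and 1.69 ± 0.0569 on drug.

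The promoter entries of F3, PLAUR, TFPI2 and F2RL2 are shown because these 4 members, all called higher off drug against parental, hold the letters TGANTCA. This is a loose form of the element bound by the AP-1 family of transcription factors, as N stands for any base. Of the 9 genes, 7 had an entry in the RefSeq promoter table (build GRCh38.p14), and PLAT and F2R had none. The motif was searched in the 250 bases before each start on both strands, where it reads the same, so a match on either strand is 1 match. It was present in 4 of the 7 genes with an entry and in 6.57% of all 35116 promoters of that length. The first is a count of genes and the second of promoters, and PLAU and SERPINE2 had 2 promoters each. GC box letters, TATAAA and GGAATG were searched in the same windows. Among the members TATAAA matched in F3 only and GGAATG in F2RL1 only. Counted back from the RefSeq start, F3 held 2 such matches, at 223 and 210 bases, PLAUR 1 at 186 bases, TFPI2 1 at 87 bases and F2RL2 1 at 37 bases. These starts lie downstream of the outermost GENCODE starts given with each gene, by 41 bases in F3, 378 in PLAUR, 238 in TFPI2 and 31 in F2RL2. By GENCODE the matches of PLAUR and TFPI2 are therefore within an exon of the gene, that of F2RL2 shares 1 base with its first exon, and those of F3 lie outside the gene. In the runs below, 5′ to 3′ on the minus strand, from which all 4 genes are read, capitals mark the motif. The F3 run is chr1:94541801-94542009, the PLAUR run chr19:43670339-43670365, the TFPI2 run chr7:93890824-93890850 and the F2RL2 run chr5:76623424-76623450. PLAU, SERPINE2 and F2RL1, also called higher off drug, held no match in their windows. The matches of PLAUR and F2RL2 and that of F3 at 210 bases read TGAGTCA. Those of TFPI2 and of F3 at 223 bases read TGAATCA, and depend on the loose pattern. No AP-1 binding was measured, and a match is only a description of the letters.
F3: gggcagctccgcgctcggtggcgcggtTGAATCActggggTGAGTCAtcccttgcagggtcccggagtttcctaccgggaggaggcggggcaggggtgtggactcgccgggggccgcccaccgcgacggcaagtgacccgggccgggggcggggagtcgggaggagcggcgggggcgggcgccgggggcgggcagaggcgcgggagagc
PLAUR: cacaactccaTGAGTCAgggccgagcc
TFPI2: tccccgtgcaTGAATCAgccacccctc
F2RL2: aggcttggccTGAGTCAtgcttactga
The GC box letters GGGCGG, which read CCGCCC on the other strand and are found in 42.6% of all promoters, occurred 4 times in the F3 window, 2 times in that of TFPI2 and not in those of PLAUR and F2RL2. On drug against off drug the 4 genes shown did not move together: F3 and F2RL2 rose, and PLAUR and, less firmly, TFPI2 fell.

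Of 21 genes listed as coagulation factors and cofactors, 10 passed the filter. The list also holds genes that are neither, among them LMAN1, MCFD2 and ANXA5. Among the 10 tested, 1 was higher and 3 lower off drug against parental (median 0), beside 28.4% and 26.6% of all genes. On drug against off drug 2 were higher and 7 lower (median −1.31), beside 31.4% and 31.2%. That median lay between the changes of ANXA5 and MCFD2. On drug against parental 1 was higher and 6 lower (median −1.23), beside 33.4% and 32.9%. VWF rose from 0.381 ± 0.0555 CPM off drug to 1.59 ± 0.278 on drug. The genes of prothrombin (F2), factor VII (F7) and factor X (F10) had at most 2, 2 and 3 counts in any library. F5, the gene of the factor V cofactor, fell in both steps, from 12.5 ± 2.43 CPM in parental to 2.54 ± 0.445 off drug and 0.875 ± 0.331 on drug, although on unfiltered log2(TPM + 1) the second step was not called (−0.25, adjusted p = 0.15, limma). F8, the gene of factor VIII, fell on drug from 20.5 ± 0.589 to 5.6 ± 0.431 CPM (−1.87 ± 0.10, adjusted p = 2.4e-10). LMAN1 and MCFD2, which together carry factors V and VIII out of the endoplasmic reticulum, fell there as well (−1.68 ± 0.09, adjusted p = 1.6e-10, and −1.32 ± 0.08, adjusted p = 5.9e-10). F12, the gene of contact factor XII, was at 13.4 ± 1.31, 6.75 ± 0.317 and 4.13 ± 0.253 CPM in the 3 states. ANXA5, which encodes a protein that covers phosphatidylserine, rose off drug (1.16 ± 0.07, adjusted p = 3.2e-09) and fell on drug (−1.30 ± 0.07, adjusted p = 3.4e-10).

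Of 10 natural anticoagulants listed, 5 passed the filter. Off drug against parental 3 were lower (median −1.07), beside 26.6% of all genes, and TFPI and THBD were not called. On drug against off drug 2 were higher and 2 lower (median −0.18), beside 31.4% and 31.2%. On drug against parental 1 was higher and 2 lower (median −1.25), beside 33.4% and 32.9%. PROCR, the gene of the endothelial protein C receptor, fell in both steps, at 98, 91.9 and 112 CPM in parental, 38.2, 37 and 39.2 off drug and 11.9, 13.1 and 11.6 on drug. Its states did not overlap (−1.40 ± 0.09 off drug, adjusted p = 3.3e-09; −1.64 ± 0.09 on against off drug, adjusted p = 3.8e-10). PROS1, the gene of protein S, fell off drug from 12.8 ± 0.652 to 7.14 ± 0.186 CPM and rose on drug to 27.4 ± 0.59 (1.94 ± 0.09, adjusted p = 3.9e-11). THBD, the gene of thrombomodulin, was at most 0.406 ± 0.172 CPM in mean and was not called (adjusted p = 0.097 to 0.84), except that without off-drug replicate 1 it was lower off drug against parental (−2.09, adjusted p = 0.047). THBD held 1 to 16 counts a library. Its changes, −1.07 off drug, −0.18 on against off drug and −1.25 on drug against parental, are also the 3 medians of this list. The second ran from −0.74 to 0.83 when single libraries were left out.

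**Figure D3:**
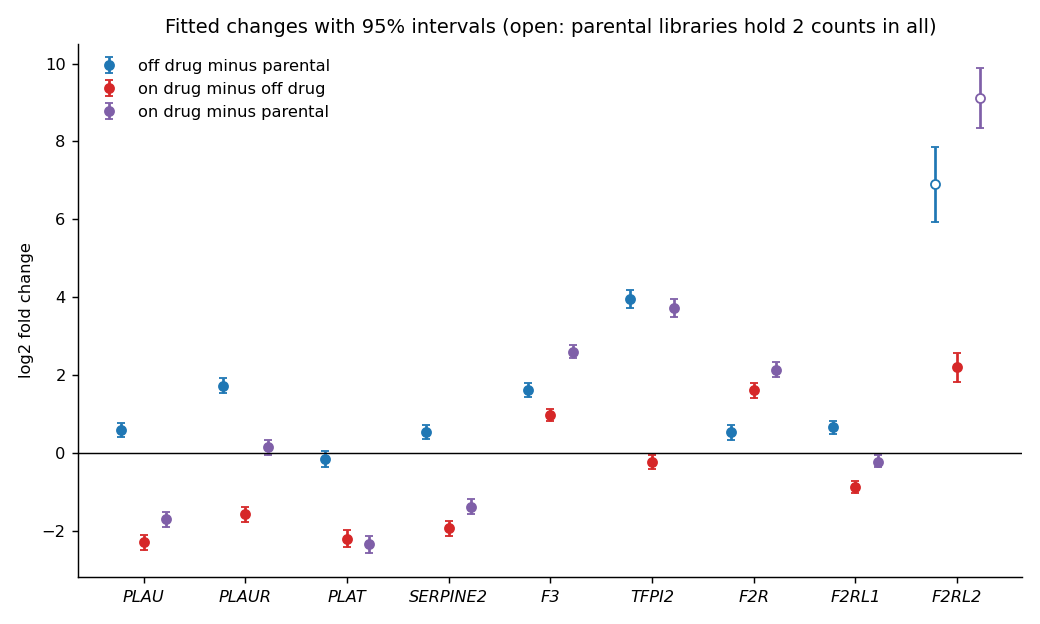
Log2 fold changes of the 9 genes in the 3 comparisons (points, with 95% intervals). Open points for F2RL2 are set against parental libraries that held 2 counts in all, and their size depends on the prior count of the fit. Changes off drug against parental are at or above 0.53 except for PLAT at −0.15.

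The receptor genes F2R, F2RL1 and F2RL2 lie in 1 cluster on chromosome 5 that spans 219.8 kb. F2R (ENSG00000181104.7, chr5:76716043-76735781, plus strand) encodes PAR1, the main thrombin receptor. It was at 17.6, 19.8 and 21.1 CPM in parental, 28.9, 26.7 and 29 off drug and 85.7, 90.3 and 81.4 on drug. The states did not overlap, and on-drug libraries were highest. F2R rose 1.45-fold off drug (0.53 ± 0.09, adjusted p = 0.00011) and 3.04-fold from off to on drug (1.61 ± 0.09, adjusted p = 2.2e-10). On drug it was 4.41-fold above parental cells (2.14 ± 0.09, adjusted p = 8.7e-12).

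F2RL1 (ENSG00000164251.5, chr5:76818933-76835315, plus strand) encodes PAR2, which responds to trypsin-like proteases and to the tissue factor and factor VII complex. Parental libraries were at 71.2, 65.8 and 67.8 CPM, off-drug libraries at 107, 106 and 110.4 and on-drug libraries at 60.9, 58.4 and 57.1. Off-drug libraries were highest, and on-drug libraries were just below the parental ones. F2RL1 rose 1.58-fold off drug (0.66 ± 0.07, adjusted p = 1.7e-06) and fell 1.83-fold on drug (−0.88 ± 0.07, adjusted p = 4e-08). On drug against parental it was called lower by a small step (−0.22 ± 0.07, adjusted p = 0.017). It was no longer called when parental replicate 1 (−0.19, adjusted p = 0.07) or on-drug replicate 3 (−0.20, adjusted p = 0.055) was left out or with no filter (adjusted p = 0.16), and the sign turned with library size only (0.01) and on the TPM scales (0.09). In TPM, F2RL1 exceeded F2R by 4.75 ± 0.589 times in parental and 5.07 ± 0.235 times off drug, and the ratio was 0.924 ± 0.0457 on drug (SD, n = 3).

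F2RL2 (ENSG00000164220.7, chr5:76615482-76623434, minus strand) encodes PAR3, which thrombin also cuts and which is known as a cofactor for other PARs. Its estimated counts were 0, 2 and 0 in parental libraries, so it passed the filter only through the resistant ones. Off-drug libraries stood at 2.74, 3.11 and 4.24 CPM and on-drug libraries at 16.3, 14.5 and 16.1. The gene was thus nearly undetected in parental cells, with off-drug libraries between these and the on-drug ones. Summed counts were 277 off drug and 1786 on drug against 2 in parental libraries, a depth-scaled ratio of 141 (95% interval 38.7 to 1172) and 645 (178 to 5331), where the intervals cover counting error only. The fitted changes against parental, 6.90 ± 0.45 (adjusted p = 4.7e-09) and 9.11 ± 0.36 (adjusted p = 5.1e-12), depend on the prior count. The first was 9.74 without parental replicate 2 and 1.23 on the log2(TPM + 1) scale. From off to on drug F2RL2 rose 4.61-fold (2.21 ± 0.17, adjusted p = 2e-08). F2RL3, the gene of PAR4, did not pass the filter, with 0 to 2 counts in parental, 8 to 25 off drug and 0 to 1 on drug.

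The neighbours of the cluster were looked at after its values were known. Within 500 kb the annotation lists 30 genes, of which 8 were tested, 5 of them no members. F2RL2 lies inside the span of IQGAP2, a scaffold protein gene on the other strand, and 87 bases of their exons overlap. IQGAP2 had 0 to 1 counts in parental, 1 to 16 off drug and 19 to 36 on drug, and was called higher off drug (3.02 ± 1.09, adjusted p = 0.028) and again on drug (1.77 ± 0.62, adjusted p = 0.02). F2RL2 held up to 623 counts a library, and with no strand setting given, reads of the 2 genes in the overlap cannot be told apart. AGGF1 stood at 29.8 ± 0.908, 42.4 ± 3.23 and 34.6 ± 1.92 CPM in the 3 states, rose off drug (0.51 ± 0.08, adjusted p = 9.9e-05) and fell on drug (−0.29 ± 0.08, adjusted p = 0.0063). ZBED3 rose off drug (1.15 ± 0.27, adjusted p = 0.002). ZBED3-AS1, an antisense gene at 0.102 to 0.56 CPM in mean, rose on drug against off drug (2.32 ± 0.7, adjusted p = 0.0092). PDE8B was not called in any comparison, at 0.226 to 0.244 CPM in mean. Changes in this stretch were thus of either sign on drug, with F2R up and F2RL1 down 83.2 kb away.

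**Figure D4:**
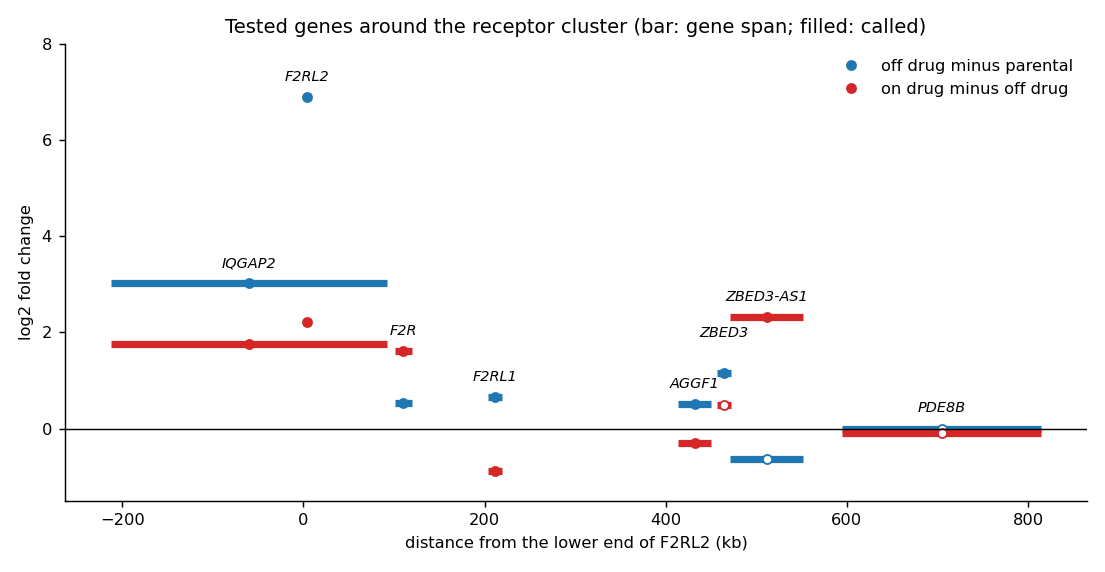
Log2 fold changes (vertical axis) of the 8 tested genes within 500 kb of the receptor cluster, at their distance from the lower end of F2RL2 in kb (bars span each gene; filled points were called). Of the genes called on drug against off drug, F2RL2, IQGAP2, F2R and ZBED3-AS1 are above 0, and F2RL1 and AGGF1 are below it.

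Of 20 proteases that cut PARs and their inhibitors, 18 passed the filter. Off drug against parental 2 were higher and 12 lower (median −0.96), beside 28.4% and 26.6% of all genes. On drug against off drug 6 were higher and 9 lower (median −0.35), beside 31.4% and 31.2%. On drug against parental 3 were higher and 15 lower (median −1.15), beside 33.4% and 32.9%. MMP1, whose product can cut PAR1, rose off drug from 5.56 ± 0.621 to 12.2 ± 0.963 CPM and fell to 0.262 ± 0.0914 on drug (−5.51 ± 0.21, adjusted p = 3.1e-12). MMP13 moved the other way, from 74.2 ± 2.31 to 4.43 ± 2.12 and then 23.8 ± 3.71 CPM. Both collagenase genes thus changed at each step with opposite signs. TMPRSS2, a membrane serine protease gene, rose on drug from 3.71 ± 0.466 to 30.7 ± 3.33 CPM (3.04 ± 0.12, adjusted p = 6e-12). ST14, the gene of matriptase, an activator of PAR2, fell off drug (−1.04 ± 0.10, adjusted p = 2e-07) and rose on drug (1.27 ± 0.10, adjusted p = 1.2e-08). TMPRSS11E followed ST14 in direction, at 44.2 ± 1.97, 11.6 ± 1.37 and 30.1 ± 3.95 CPM. TMPRSS4 fell in both steps, from 434 ± 22.3 to 129 ± 5.54 and 78.2 ± 9.57 CPM. SLPI, the gene of a secreted protease inhibitor, fell off drug from 38.7 ± 4.2 to 1.81 ± 0.635 CPM (−4.44 ± 0.22, adjusted p = 2.4e-10). SERPINB1 rose off drug (0.91 ± 0.07, adjusted p = 5.2e-08) and fell on drug (−1.85 ± 0.08, adjusted p = 8.2e-12).

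Of 20 genes that carry PAR signals, 19 passed the filter. Off drug against parental 6 were higher and 4 lower (median 0.21), beside 28.4% and 26.6% of all genes. On drug against off drug 10 were higher and 6 lower (median 0.32), beside 31.4% and 31.2%. On drug against parental 11 were higher and 3 lower (median 0.48), beside 33.4% and 32.9%. ARHGEF1, which encodes the RhoA exchange factor downstream of G12/13 proteins, rose off drug from 82.1 ± 6.41 to 196 ± 6.56 CPM and fell to 62.2 ± 5.1 on drug (−1.66 ± 0.09, adjusted p = 1.5e-10). GNAI1, an inhibitory G protein subunit gene, had the reverse order, at 23 ± 1.02, 13.9 ± 0.61 and 34 ± 1.04 CPM. GNAQ, the subunit gene that couples PARs to phospholipase C, rose on drug against off drug (0.98 ± 0.09, adjusted p = 9.7e-08). PLCB1, a phospholipase C gene, fell off drug from 63.1 ± 7.67 to 18.7 ± 1.2 CPM (−1.75 ± 0.10, adjusted p = 8.4e-10), while PLCB4 rose on drug from 2.6 ± 0.389 to 6.73 ± 0.784 CPM (1.38 ± 0.19, adjusted p = 9.3e-06; 0.63, adjusted p = 0.057 on unfiltered log2(TPM + 1)). RGS4, which speeds the shut-off of G protein signals, was named after its values were seen. It was at 0 in all 3 parental libraries, 1.5 ± 0.163 CPM off drug and 0.623 ± 0.167 on drug.

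**Figure D5:**
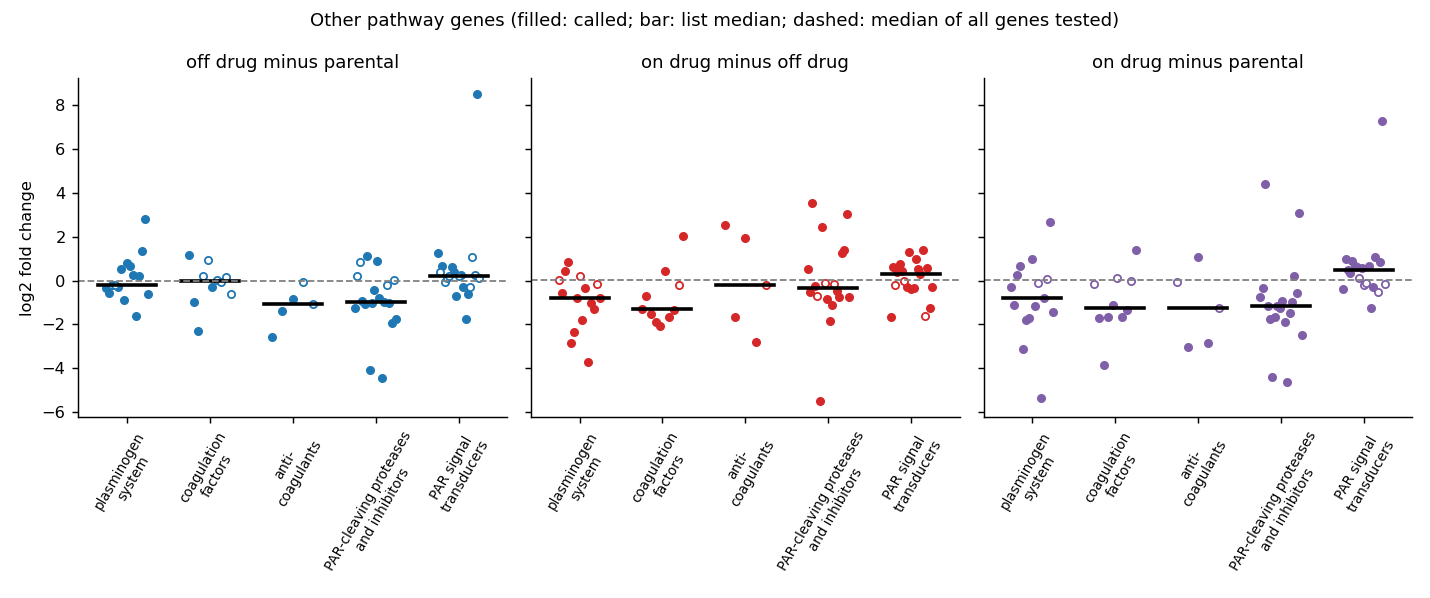
Log2 fold changes of the tested genes of 5 pathway lists in the 3 comparisons (points; filled where called), with each list's median (bar) and the median over all genes tested (dashed). Medians of the plasminogen list and the coagulation list lie at −0.80 and −1.31 on drug against off drug. The coagulation list also holds genes such as LMAN1, MCFD2 and ANXA5.

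Ranked per length, the 9 genes changed places between states. In parental cells the order by mean TPM was PLAU (487), PLAT (57.5), PLAUR (55.1), SERPINE2 (39.6), F2RL1 (29.5), F3 (7.73), F2R (6.23), TFPI2 (1.94) and F2RL2 (0.0109), where PLAT and PLAUR were the only neighbours to overlap. Off drug it was PLAU (698), PLAUR (199), SERPINE2 (59.0), PLAT (59.0), F2RL1 (49.6), TFPI2 (31.5), F3 (25), F2R (9.79) and F2RL2 (1.38), with overlap between SERPINE2 and PLAT. On drug it was PLAU (166), PLAUR (83.1), F3 (57.2), F2R (34.0), TFPI2 (33.8), F2RL1 (31.4), SERPINE2 (18.5), PLAT (15.3) and F2RL2 (7.49). There F2R, TFPI2 and F2RL1 could not be ranked among themselves, nor SERPINE2 and PLAT. F3 moved from rank 6 in parental to rank 3 on drug, and PLAT from rank 2 to rank 8. PLAU stayed first throughout, although its lead over the gene ranked next narrowed from parental to on-drug cells.

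The genes most like each member across the 9 libraries were taken from 10140 genes (10141 for F2RL2) by Pearson r of log2 CPM, as a description in which 3 states with 3 libraries each set most of the variation. PLAU was nearest to YARS1, a tRNA synthetase gene (r = 0.998), ETV4, an ERK-induced transcription factor gene (r = 0.9979), and SERPINE2 (r = 0.9976). ETV4 stood at 43.8 ± 3.27, 61.7 ± 1.93 and 19.8 ± 1.37 CPM in the 3 states, the order seen for PLAU. PLAUR was nearest to SEMA7A, a semaphorin gene (r = 0.9976), and COL13A1, a transmembrane collagen gene (r = 0.9963), which were likewise high off drug only, at 138 and 48.2 CPM in mean against 36.7 and 4.73 in parental and 39.1 and 5.06 on drug. TFPI2 had AXL, a receptor tyrosine kinase gene, among its 3 nearest (r = 0.9961). F2R was nearest to CCNE2, a cyclin gene (r = 0.9974), and had MYBL2, a transcription factor gene, among its 3 nearest (r = 0.9966). F3 was nearest to PRICKLE1, a planar polarity gene (r = 0.9989), and F2RL2 had GLIPR1 (r = 0.9967) second. PLAT was nearest to TMEM231 (r = 0.9983) and F2RL1 to ZNF165 (r = 0.9957). Between 198 (PLAUR) and 659 (PLAU) genes exceeded r = 0.95 with a member, so such closeness was common. Among the members themselves r ran from −0.97 for PLAT with F2R to 0.99 for F3 with F2RL2 and over 0.99 for PLAU with SERPINE2.

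Markers of other cells that make these genes were measured beside them. Endothelial markers summed to 11.3 to 14 CPM in parental, 54 to 55.5 off drug and 15.6 to 21.1 on drug. Off drug, where 28.4% of all genes were called higher, 5 of 7 tested markers rose. These were PECAM1 (0.803 to 5.02 CPM in mean), KDR (10.1 to 20.5), TIE1 (0.168 to 11.6), TEK (0.0748 to 0.844) and ESAM (1.01 to 16.2). CDH5 and VWF were not called there, and EMCN was at 0 in all libraries. TIE1 and TEK held 1 to 6 counts in parental libraries and passed the filter only through resistant ones. Fibroblast markers summed to 27 to 31.1, 17.9 to 18.9 and 126 to 158 CPM. On drug against parental 7 of 7 tested were higher, beside 33.4% of all genes. Of these, COL1A2, COL3A1, PDGFRB, PDGFRA and FAP held 0 to 2 counts in parental libraries and passed the filter only through resistant ones. Their calls were thus close to set in advance, and the count is a description only. The on-drug sum came mainly from LUM (89.3 CPM in mean) and COL1A1 (43.9), while COL1A2, PDGFRA and FAP were at most 0.517 CPM in mean. Platelet markers summed to at most 0.802 CPM, with GP9, PF4 and PPBP at 0, and leukocyte markers to at most 7.04 CPM. F3 and F2R rose at both steps. The fibroblast sum fell off drug, where COL1A1 was called lower (26.6 to 13.9 CPM in mean) and PDGFRB and PDGFRA higher, and rose on drug. PLAUR and the 5 endothelial markers named rose off drug. On drug PLAUR fell with PECAM1, KDR, TIE1 and ESAM, while CDH5 and VWF rose. The part of other cells or their markers in the results was not tested.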

How the data were processed

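Per the labels' protocols, poly(A) RNA was enriched with oligo(dT) beads and sequenced as paired reads. The authors deposited estimated counts per gene and TPM values. Salmon 0.14.1, FastQC 0.12.1, bcl2fastq 2.17 and the build GRCh38.p13 are named per the submitters' processing notes. Strand setting and annotation release are not given there. The estimated counts were rounded to whole numbers before testing, as the design allowed for. edgeR 4.0.16 in R 4.3.3 was fitted to all 9 libraries without covariates (TMM scaling; filterByExpr, minimum count 10, minimum total 15; quasi-likelihood test; Benjamini-Hochberg adjustment over 17307 genes; 6 residual degrees of freedom). The steps were tested on simulated data.

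The members and pathway lists were chosen with earlier results of these data known. All members were named, and of each list up to 6 called genes per comparison with the largest change and a mean log2 CPM of 1 or more, of which a selection is printed, with SERPINB2, TFPI, THBD, PROCR, F2RL3, PLG, F2, F7 and F10 always named. Some genes that these rules took are not reported here. Likeness used the 3 highest r per member among genes whose mean log2 CPM was 2 or more, of which some are printed. Symbols matched 60089 of 60230 identifiers. Positions are from GENCODE 29 (GRCh38). Between libraries of a state chi-square per degree of freedom was at least 4.86, so none was merged. Alternatives were RLE, upper-quartile and library-size scaling, a stricter filter and none, a replicate block, DESeq2 1.42.0, limma voom, fits of the compared groups alone, leaving out each library, and limma 3.58.1 on log2 TPM with a pseudocount of 1 or 0.1.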

Additional observations from a re-analysis of the deposited data

How the results depend on the processing

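Over 18 alternatives a result, 463 of 486 values of the 9 genes kept their side of the threshold and, where called, their direction, and 23 of 27 gene results did so throughout. PLAT off drug against parental, not called, was 0.04 on each TPM scale. The exceptions were PLAT off drug against parental, TFPI2 on against off drug, and PLAUR and F2RL1 on drug against parental. TFPI2 turned sign to 0.02 with library size only and to 0.10, 0.11 and 0.10 on the TPM scales, and F2RL1 to 0.01 with library size only and 0.09 on each TPM scale. Upper-quartile scaling gave 1 member lower off drug against parental. Among other pathway genes, turned values were GNAQ off drug against parental (0.32, 0.35 and 0.32 on the TPM scales), GNA12 on against off drug (0.23 with library size only, 0.29, 0.30 and 0.29 on the TPM scales) and PLCB3 on drug against parental (0.12 on each TPM scale). The cause was not tested. Over all genes, fewer were called lower on log2(TPM + 1), log2(TPM + 0.1) and unfiltered log2(TPM + 1). These counts were 2529, 2531 and 2671 off drug against parental, 2995, 2975 and 3000 on against off drug, and 2828, 2802 and 3162 on drug against parental, beside 4602, 5403 and 5690. With library size only, 3585 were lower on against off drug. TPM rests on estimated transcript lengths. Same-numbered libraries deviated together at r = −0.03 to 0.14, so the numbers were not taken as pairs. With a replicate block, 4906 genes were higher and 4537 lower off drug against parental, 5383 and 5375 on against off drug, and 5768 and 5649 on drug against parental, and 3 of 9 libraries correlated best with their own number. With 3 libraries a state, changes near the spread between libraries may have been missed, and no smallest detectable change is given here.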
